A study of Mus musculus with 4 samples.

Results

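The Shroom family of mouse actin-binding proteins has 4 genes in the deposited table of 22686 genes. They were found by name: X-linked Shroom2 and Shroom4, and autosomal Shroom1 on chromosome 11 and Shroom3 on chromosome 5. The family was chosen by its paternal shares: both X-linked members had more paternal reads in Smchd1 MD1/MD1 than in +/+ cells, so that gain is described here and not tested. RNA came from female epiblast stem cells (EpiSCs), pluripotent cells that correspond to the epiblast after implantation. They were labelled with the stage E6.5 and came from a C57BL6/J parent crossed with an F1 of JF1 and C57BL6/J. One library was made for each of 4 combined genotypes: Smchd1 MD1/MD1 with XistdeltaA/+, Smchd1 +/+ with XistdeltaA/+, Smchd1 MD1/MD1 with Xist1lox/+, and Smchd1 +/+ with Xist1lox/+. Every library therefore carries an Xist mutation in the heterozygous state, and no library is free of one. Whether a library stands for more than 1 embryo or cell line is not stated in the labels.

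Shroom proteins bind actin filaments and, through a conserved C-terminal domain, the kinases Rock1 and Rock2. Rock activates non-muscle myosin II, and the pull of myosin on actin at cell junctions narrows the apical side of an epithelial cell. Shroom3 is best known for this apical constriction during closure of the neural tube. X inactivation silences most genes of an X chromosome in female cells: the long noncoding RNA Xist coats the chromosome to be silenced, and SmcHD1 is a chromatin protein that helps to keep its genes silent.

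Allele-assigned reads, which cover a strain variant and so can be given to a parent, summed to between 7301034 and 8008500 per library. Smchd1 had 6.68 and 5.98 FPKM in the MD1/MD1 libraries, against 27.0 and 20.9 FPKM in the +/+ libraries (XistdeltaA/+ first, then Xist1lox/+). Xist reads were 99.5% to 99.9% paternal in all 4 libraries, so the paternal X was the chromosome that transcribed Xist. The Xist level was 38.3 and 28.9 FPKM in MD1/MD1, against 12.1 and 10.5 FPKM in +/+ (ratios 3.17 and 2.75). The limma fit described below did not call it (log2 difference 1.48 ± 0.17, SE, adjusted p = 0.266). Any relation of the Xist level to the paternal shares was not tested. All 6 EpiSC markers examined, Pou5f1, Fgf5, Otx2, Nanog, Dnmt3b and Lin28a, were at 1 FPKM or more in every library, with summed levels of 1035 to 1548 FPKM. Markers of fibroblast feeder cells summed to 82.6 FPKM in MD1/MD1 XistdeltaA/+ and to 32.9 to 42.0 FPKM in the other libraries. Macrophage markers summed to 83.3 FPKM in MD1/MD1 XistdeltaA/+ and to 21.9 to 36.1 FPKM elsewhere. Mesoderm markers summed to 5.41 FPKM in MD1/MD1 XistdeltaA/+ and to 0.517 to 0.837 FPKM elsewhere. Trophoblast markers were at most 0.252 FPKM, also in that library. Sums for naive pluripotency, endoderm, neuroectoderm and surface epithelium were highest in other libraries. In bulk samples such as these, fewer cells of a type and less RNA per cell cannot be told apart.

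Shroom2 encodes a protein of cell junctions and the cortical actin network. It lies on the minus strand of the X chromosome (mm9, chrX:149044052-149204029), and no other gene of the table overlaps it. It was the best measured X-linked member, with 1010 to 1663 allele-assigned reads per library. Its paternal share was 25.6% (exact Clopper-Pearson interval at 95%, 23.5 to 27.7) in MD1/MD1 XistdeltaA/+, from 425 paternal reads of 1663, against 0.133% (0.0161 to 0.478), 2 reads of 1508, in +/+ XistdeltaA/+. With Xist1lox/+ it was 24.2% (21.99 to 26.6), 332 reads of 1370, in MD1/MD1, against 0.297% (0.0613 to 0.866), 3 reads of 1010, in +/+. Both MD1/MD1 libraries were high and both +/+ libraries were near 0, which is the gain by which the family was picked. Intervals cover counting error only, since reads without molecular identifiers are not independent molecules.

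A gain in the total level of Shroom2 close to that of its paternal part (3.57 and 3.14 FPKM) appeared in the Xist1lox/+ pair. No such gain in the total appeared in the XistdeltaA/+ pair of Shroom2. Its FPKM was 12.8 in MD1/MD1 and 13.7 in +/+ with XistdeltaA/+, and 13.1 in MD1/MD1 and 9.52 in +/+ with Xist1lox/+, so the total was lower in MD1/MD1 in the first pair and higher in the second (ratios 0.929 and 1.38). Multiplying FPKM by the share of each allele splits the level into a paternal and a maternal part. The paternal part of Shroom2 was 3.26 and 3.17 FPKM in the MD1/MD1 libraries, against 0.0182 and 0.0283 FPKM in the +/+ libraries. Its maternal part was 9.50 FPKM in MD1/MD1 and 13.7 FPKM in +/+ with XistdeltaA/+ (ratio 0.693), and 9.92 FPKM in MD1/MD1 and 9.49 FPKM in +/+ with Xist1lox/+ (ratio 1.04). The maternal part was thus close to 9.5 to 9.9 FPKM in 3 libraries, and +/+ XistdeltaA/+ alone stood above them. Over 324 X-linked genes other than Xist with both measures, the median ratio of the maternal part was 0.904 in the XistdeltaA/+ pair and 1.01 in the Xist1lox/+ pair, and 271 and 131 of these genes had a higher ratio than Shroom2.

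**Figure D1:**
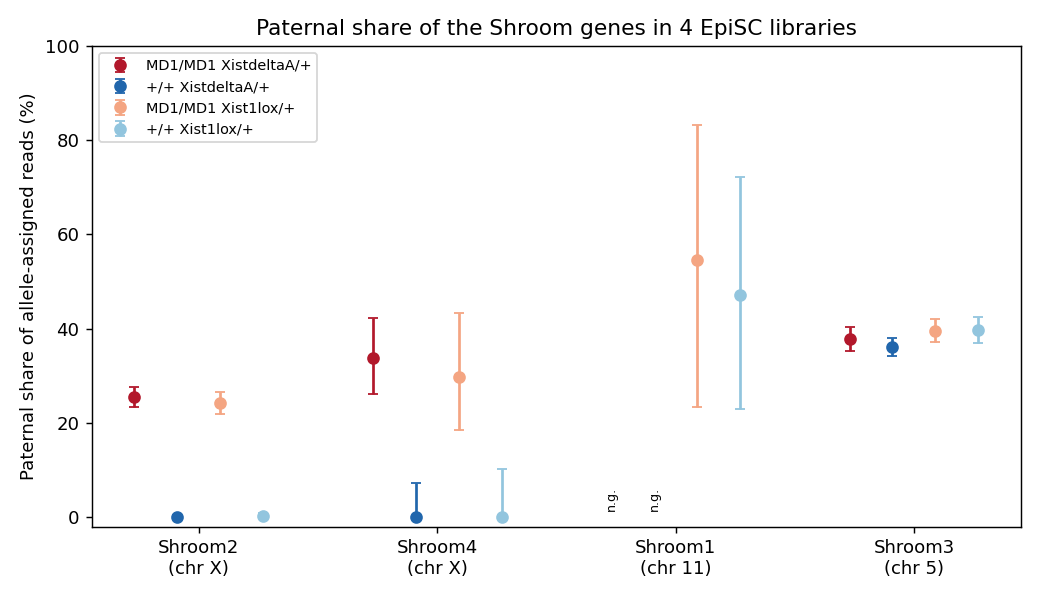
Paternal share of allele-assigned reads (%, y axis) for each Shroom gene in the 4 libraries; bars are exact Clopper-Pearson intervals at 95%, and n.g. marks a library in which the share is not given in the deposited table. Shroom2 is at 25.6% and 24.2% and Shroom4 at 33.8% and 29.8% in MD1/MD1; in +/+ Shroom2 is at 0.133% and 0.297% and Shroom4 at 0 of 49 and 0 of 34 reads, while Shroom3 lies between 36.1% and 39.7% in all libraries.

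Shroom4, an X-linked member whose human counterpart has been linked to intellectual disability, lies near the other end of the chromosome on the plus strand (mm9, chrX:5977263-6210835). The antisense gene 5430428K19Rik lies inside it and is listed at 0 reads and 0 FPKM in all 4 libraries. Shroom4 was far more thinly measured than Shroom2. It had 48 paternal reads of 142 in MD1/MD1 XistdeltaA/+, a share of 33.8% (26.1 to 42.2). In +/+ XistdeltaA/+ it had 0 of 49, with an exact interval that reaches 7.25%. In MD1/MD1 Xist1lox/+ it had 17 paternal reads of 57, a share of 29.8% (18.4 to 43.4). In +/+ Xist1lox/+ it had 0 of 34, with an exact interval that reaches 10.3%. This gain too is one by which the family was picked, and the intervals of Shroom4 are several times as wide as those of Shroom2. Per FPKM, Shroom4 gave 30.8 to 35.7 allele-assigned reads and Shroom2 gave 105 to 130.

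Unlike Shroom2, Shroom4 had a higher total level in MD1/MD1 in both pairs. Its FPKM was 3.98 in MD1/MD1 and 1.40 in +/+ with XistdeltaA/+, and 1.81 in MD1/MD1 and 1.10 in +/+ with Xist1lox/+ (ratios 2.84 and 1.64). Both MD1/MD1 libraries lay above both +/+ libraries, an order that was not counted over all genes. The paternal part was 1.34 and 0.541 FPKM in the MD1/MD1 libraries, against 0 in both +/+ libraries. The maternal part was also higher in MD1/MD1, at 2.63 FPKM against 1.40 FPKM in +/+ with XistdeltaA/+ (ratio 1.88), and at 1.27 FPKM against 1.10 FPKM in +/+ with Xist1lox/+ (ratio 1.15). In the XistdeltaA/+ pair 10 of the 324 X-linked genes had a higher maternal ratio than Shroom4, and in the Xist1lox/+ pair 71 had one. The library with the highest Shroom4 level, MD1/MD1 XistdeltaA/+, is also the one with the highest sums of feeder and macrophage markers (82.6 and 83.3 FPKM, against at most 42.0 and 36.1 FPKM in the others). Its sum of mesoderm markers was the highest too (5.41 FPKM, against at most 0.837 FPKM). All 5 feeder markers were at 1 FPKM or more in every library, as were 3 of 4 macrophage markers except in +/+ XistdeltaA/+, where 1 was. The part of cells of any of these types in the Shroom4 level was not tested.

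**Figure D2:**
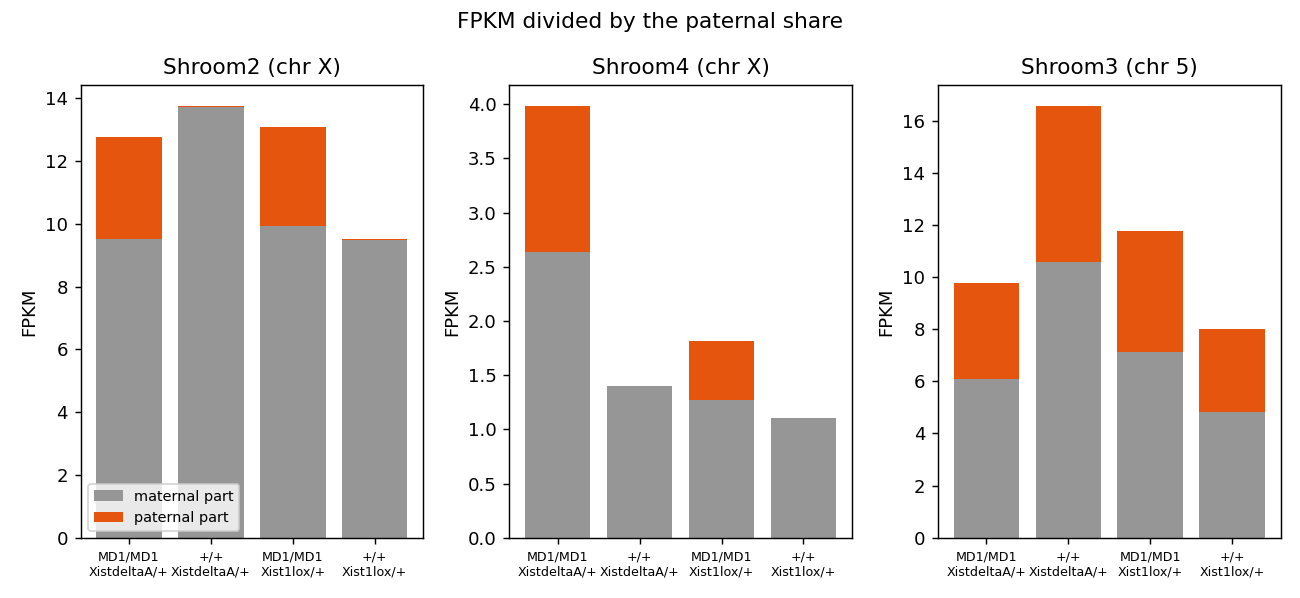
FPKM (y axis, from 0, with a scale for each gene) of Shroom2, Shroom4 and Shroom3 in each library, divided into a maternal part (grey) and a paternal part (orange) by the paternal share of allele-assigned reads. The paternal part of Shroom2 is 3.26 and 3.17 FPKM and that of Shroom4 1.34 and 0.541 FPKM in MD1/MD1, and Shroom3 is highest in +/+ XistdeltaA/+ at 16.5 FPKM.

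The test was run on genes that reached 20 allele-assigned reads in every library. Of 341 such X-linked genes, 118 (34.6%) had a higher paternal share in MD1/MD1 in both pairs by Fisher's exact test at an adjusted p under 0.05. Shroom2 and Shroom4 are in that set by the way they were picked, and nothing is read from it. Of 199 genes with a share under 1% in both +/+ libraries, 5 reached 20% in both MD1/MD1 libraries. These were Shroom2, Shroom4, Ogt, Idh3g and Ercc6l. Taf1 fell just short, at 24.7% and 19.7% in MD1/MD1 and 0% in both +/+ libraries. Such cutoffs act on the shares by which the family was picked, so the count does not show that a gain like theirs is rare. Likeness to a member was measured as the Euclidean distance between the 4 paternal shares, in points, over the 339 other genes. The genes most like Shroom2 were Idh3g, a subunit of mitochondrial isocitrate dehydrogenase, at 1.56 points, the mitotic helicase gene Ercc6l at 3.47 points, and Taf1, the largest subunit of the general transcription factor TFIID, at 4.66 points, where the median distance was 30.9 points. Ogt, which encodes the O-GlcNAc transferase, was most like Shroom4 at 3.15 points, followed by Idh3g at 8.44 and Ercc6l at 8.52 points, with a median of 40.6 points. Shroom2 and Shroom4 were 9.97 points apart. Among these genes Idh3g was the highest expressed, with 103 and 138 FPKM in MD1/MD1 XistdeltaA/+ and Xist1lox/+, against 127 and 106 FPKM in the matching +/+ libraries.

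**Figure D3:**
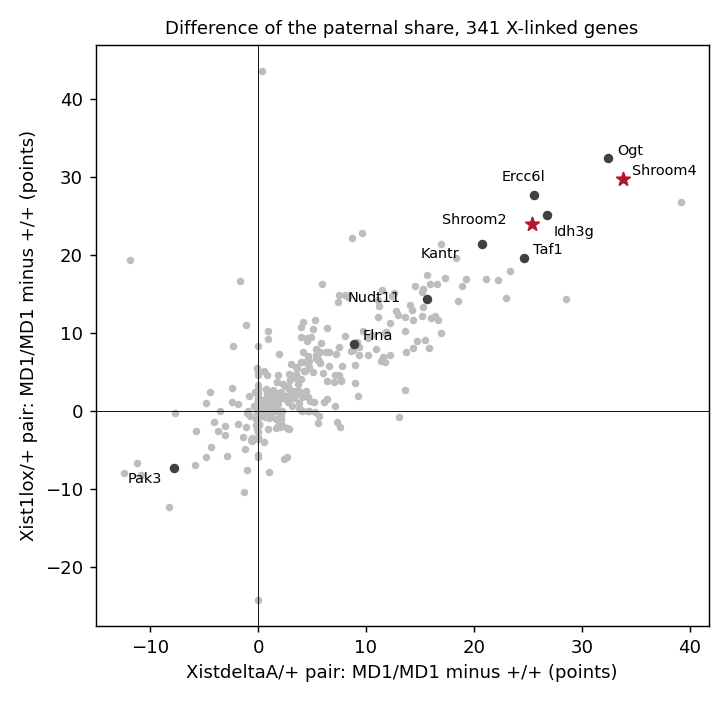
Difference of the paternal share between MD1/MD1 and +/+ (points) in the XistdeltaA/+ pair (x axis) and the Xist1lox/+ pair (y axis) for 341 X-linked genes (grey), with Shroom2 and Shroom4 as red stars and genes named in the text in dark grey. Shroom2 and Shroom4 lie at the upper right beside Ogt, Idh3g and Ercc6l, and Pak3 lies at the lower left.

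Genes around both X-linked members were mixed. Within 5 Mb of Shroom2 the paternal share was higher in MD1/MD1 in both pairs for 12 of 30 other measured genes, and within 5 Mb of Shroom4 for 12 of 32, against 34.6% of all measured X-linked genes. The median share of the genes around Shroom2 was 2.97% and 2.68% in the MD1/MD1 libraries, against 0.151% and 0.155% in the +/+ libraries (XistdeltaA/+, then Xist1lox/+). Around Shroom4 the medians were 6.80% and 7.20% in MD1/MD1, against 0.583% and 1.34% in +/+. The MD1/MD1 share of Shroom4 was above those of all 32 genes in both libraries, and that of Shroom2 was above 29 and 28 of 30. These ranks rest on the shares by which the family was picked, and nothing is read from them.

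The nearest measured genes differed between the sides of Shroom2. Kantr, a long noncoding RNA gene 315 kb towards lower coordinates (mm9, chrX:148729367-148762036), had shares of 24.1% and 26.6% in MD1/MD1, against 3.35% and 5.16% in +/+. Tspyl2, which encodes a nucleosome assembly protein, was at 7.54% and 7.98% in MD1/MD1, against 2.18% and 1.08% in +/+. Both passed Fisher's exact test in both pairs, with adjusted p of 1.23e-06 and 2.35e-06 for Kantr and of 0.00019 and 5.98e-08 for Tspyl2. Gpr173, an orphan receptor gene, did not pass in either pair on 33 to 50 reads, with 2.94% and 0% in MD1/MD1 against 4% and 7.5% in +/+. On the side of higher coordinates the transcription factor gene Foxr2, 509 kb away, had 0% in both MD1/MD1 libraries, against 11.2% and 6.67% in +/+, and passed in the XistdeltaA/+ pair alone (adjusted p = 0.016, and 0.0934 in the Xist1lox/+ pair). Rragb, a Rag GTPase of mTORC1 signalling, and the transcription factor gene Klf8 passed in neither pair. Rragb was at 1.58% and 2.68% in MD1/MD1 and 2.76% and 7.46% in +/+, and Klf8 at 1.67% and 0% in MD1/MD1 and 12.5% and 8.11% in +/+. Each of these tests compares the reads of 2 libraries, not the conditions.

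Near Shroom4 the gene on the side of lower coordinates was Nudt11, which encodes a diphosphoinositol polyphosphate phosphatase (mm9, chrX:5624625-5631869). Its share was 15.7% and 14.4% in MD1/MD1, against 0% in both +/+ libraries (Fisher's exact test, adjusted p = 7.19e-09 and 1.1e-08). No other measured gene lies below Shroom4 on this chromosome. On the other side Clcn5, a chloride-proton exchanger gene 758 kb away, was at 2.89% and 1.03% in MD1/MD1 and at 0.500% and 7.19% in +/+, and was lower in the Xist1lox/+ pair (adjusted p = 0.0125) and not called in the XistdeltaA/+ pair (adjusted p = 0.147). Usp27x, a deubiquitinase gene, passed in neither pair, and Ppp1r3f, a regulatory subunit gene of protein phosphatase 1, passed in the XistdeltaA/+ pair at 17.3% in MD1/MD1 against 0.935% in +/+ (adjusted p = 0.000696). Its Xist1lox/+ pair had 16.7% in MD1/MD1, on 30 reads, and 4.44% in +/+ (adjusted p = 0.236).

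**Figure D4:**
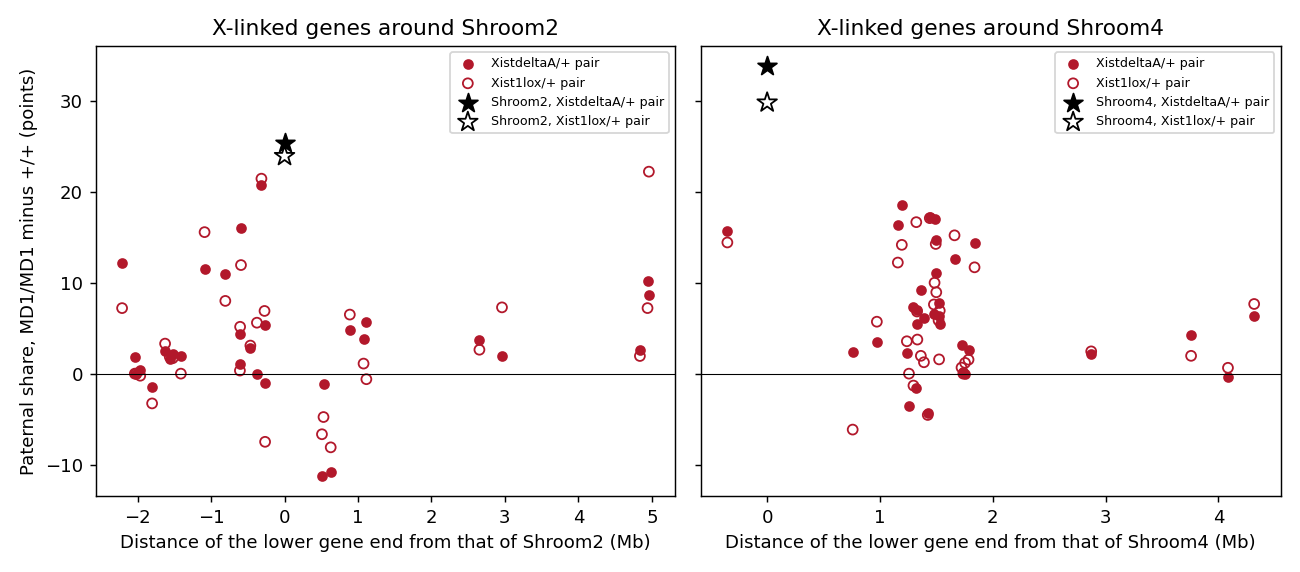
Difference of the paternal share, MD1/MD1 minus +/+ (points, y axis), for measured X-linked genes within 5 Mb of Shroom2 (left) and Shroom4 (right) by distance in Mb (x axis); filled symbols are the XistdeltaA/+ pair, open symbols the Xist1lox/+ pair, and stars the Shroom gene. Kantr and Tspyl2 lie above 0 on one side of Shroom2 and Gpr173 below it, while Foxr2, Rragb and Klf8 on the other side all lie below 0.

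Start windows of 300 bases from RefSeq (GRCm38.p6, 250 bases before to 50 after a start) were on hand for 3 of the 4 genes, Shroom2, Shroom3 and Shroom4. No cause of the paternal gain is read from them. The window with most CG dinucleotides is printed for each gene, with CG in capitals. That choice did not use the start of the measured gene, which is given in another build (mm9). Whether a printed window is the start used in these cells was not tested. The windows are chrX:152769437-152769736 (minus strand) for Shroom2, chrX:6399782-6400081 (plus strand) for Shroom4 and chr5:92897743-92898042 (plus strand) for Shroom3.
Shroom2: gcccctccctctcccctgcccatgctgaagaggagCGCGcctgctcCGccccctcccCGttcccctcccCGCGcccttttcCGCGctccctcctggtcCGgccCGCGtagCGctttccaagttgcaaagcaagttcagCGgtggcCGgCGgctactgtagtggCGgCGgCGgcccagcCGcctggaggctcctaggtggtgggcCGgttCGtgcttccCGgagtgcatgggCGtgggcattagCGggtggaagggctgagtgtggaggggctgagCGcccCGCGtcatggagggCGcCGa
Shroom4: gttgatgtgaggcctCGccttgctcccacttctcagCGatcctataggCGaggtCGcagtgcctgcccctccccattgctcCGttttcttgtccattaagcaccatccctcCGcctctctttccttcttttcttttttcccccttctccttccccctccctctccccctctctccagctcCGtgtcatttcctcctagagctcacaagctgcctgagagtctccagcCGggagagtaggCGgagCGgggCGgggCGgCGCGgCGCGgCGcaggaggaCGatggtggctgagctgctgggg
Shroom3: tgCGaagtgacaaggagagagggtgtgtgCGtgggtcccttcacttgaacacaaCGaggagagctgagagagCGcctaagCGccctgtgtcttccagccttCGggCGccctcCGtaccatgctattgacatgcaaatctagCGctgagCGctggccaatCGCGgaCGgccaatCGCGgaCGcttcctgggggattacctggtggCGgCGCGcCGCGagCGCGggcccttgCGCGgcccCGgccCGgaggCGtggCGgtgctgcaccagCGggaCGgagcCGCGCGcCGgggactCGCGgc
The Shroom2 window held 29 CG dinucleotides, a count reached by 4.99% of 1223 X-linked windows and 12.9% of all 32851 windows. The Shroom4 window held 18, reached by 20.6% of X-linked windows, and the Shroom3 window held 37, reached by 5.58% of all windows. The median window had 7. Motifs were searched on both strands. The GC box GGGCGG, which itself holds a CG, was in the Shroom2 window once and in the Shroom4 window at 2 positions, and in 33.9% of X-linked windows. It was not in the printed Shroom3 window. The TATA box TATAAA, present in 13.6% of all windows, and the YY1 core AAGATGG, present in 6.34%, were in none of the 3 printed windows. The printed windows are the richest in CG of 4 for Shroom2, 3 for Shroom4 and 2 for Shroom3, so their ranks among single windows are those of a maximum. Because the GC box holds a CG, its rate in single windows is not a matched comparison either. The other windows held 1 to 4 CG for Shroom2, 6 for Shroom4 and 12 for Shroom3, and TATAAA was in 2 of those of Shroom2 and 1 of those of Shroom4. The GC box was in the other Shroom3 window.

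Shroom3, the apical constriction gene, lies on the plus strand of chromosome 5 (mm9, chr5:93112461-93394785) and had 1195 to 2345 allele-assigned reads. Its paternal share was 37.7% (35.2 to 40.3) in MD1/MD1 and 36.1% (34.2 to 38.1) in +/+ with XistdeltaA/+, and 39.5% (37.1 to 42.0) in MD1/MD1 and 39.7% (36.9 to 42.5) in +/+ with Xist1lox/+. The MD1/MD1 and +/+ libraries overlapped within their intervals. The difference was 1.59 points (Newcombe interval at 95%, -1.58 to 4.80) in the XistdeltaA/+ pair and -0.15 points (-3.84 to 3.52) in the Xist1lox/+ pair, with adjusted p of 0.512 and 1 by Fisher's exact test. Of the autosomal genes tested, 36.9% and 37% passed in these pairs. In all 4 libraries the interval of Shroom3 lay below 50%. The median share of the 31 measured genes within 5 Mb was 44.0% and 49.1% in MD1/MD1 and 50.4% and 48.0% in +/+, and 6 of these genes, Slc4a4, Ankrd17, Mthfd2l, Cxcl10, Nup54 and Cnot6l, were also under 40% in every library. Its nearest neighbours spanned a wide range: Nup54, a nuclear pore gene, was at 12.6% to 17.7% and Scarb2, a lysosomal membrane protein gene, at 41.9% to 49.7%, while the septin gene Sept11 was at 53.6% to 55.7% and Ccni, a cyclin gene, at 43.4% to 52.7%.

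The total level of Shroom3 went in opposite directions in both Xist backgrounds. It was 9.79 FPKM in MD1/MD1 and 16.5 FPKM in +/+ with XistdeltaA/+, a ratio of 0.592, and 11.8 FPKM in MD1/MD1 and 8.02 FPKM in +/+ with Xist1lox/+, a ratio of 1.47. The +/+ libraries were thus the highest and the lowest of the 4, with both MD1/MD1 libraries between them. Allele-assigned reads, scaled to the library total, gave ratios of 0.587 and 1.40. On the log2(FPKM + 1) scale these are -0.70 and 0.50, and the limma fit over 11471 genes gave a mean difference of -0.10 ± 0.31 (SE, adjusted p = 0.975; 2 libraries a genotype, 1 residual degree of freedom), so no difference between Smchd1 genotypes was called. That fit called 4 genes, 0.0349% of those tested. By size alone, with 1 FPKM added to each level, 18.5% of genes were at least 1.5-fold higher or lower in MD1/MD1 in the XistdeltaA/+ pair, Shroom3 and Shroom4 among them. In the Xist1lox/+ pair 3.19% were, and on this scale no Shroom gene was among them, although the FPKM ratio of Shroom4 without the added 1 was 1.64. Changes were small in that pair, and those of Shroom2, Shroom3 and Shroom4 lay above those of 96.4%, 97.6% and 96.3% of genes. In the XistdeltaA/+ pair they lay above 44.2%, 5.76% and 96.4%. The totals of Shroom2 and Shroom4 include the paternal gain by which the family was picked, so nothing is read from their ranks.

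Shroom1 was barely expressed. It lies on chromosome 11 (mm9, chr11:53270707-53281268, plus strand) and had 0.292 FPKM from 9 allele-assigned reads in MD1/MD1 and 0.130 FPKM from 3 in +/+ with XistdeltaA/+. With Xist1lox/+ it had 0.266 FPKM from 11 reads in MD1/MD1 and 0.389 FPKM from 17 in +/+. Its paternal share is given in the Xist1lox/+ pair alone, at 54.5% (23.4 to 83.3) in MD1/MD1 and 47.1% (23.0 to 72.2) in +/+. With these reads no difference between the libraries was detectable, and Shroom1 did not reach the minimum of 20 reads or a mean of 1 FPKM, so it entered neither test. With a minimum mean of 0.1 FPKM its limma difference was 0.03 on the log2 scale (adjusted p = 0.994). Neighbours Zcchc10, Aff4, Sept8 and Kif3a, the last a kinesin gene, had shares of 46.9% to 55.3% in all libraries, so both parental alleles were present around Shroom1.

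By level per length, Shroom3 and Shroom2 were the abundant members, at 8.02 to 16.5 FPKM and 9.52 to 13.7 FPKM. Their ranges overlap, and which of them was higher differed between libraries: Shroom2 was higher in both MD1/MD1 libraries and in +/+ Xist1lox/+, Shroom3 in +/+ XistdeltaA/+. Shroom4, at 1.10 to 3.98 FPKM, and Shroom1, at 0.130 to 0.389 FPKM, followed in every library.

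The 2 Xist mutations were compared within each Smchd1 genotype, a contrast that did not serve to pick the family. The paternal share of Shroom2 was 24.2% with Xist1lox/+ and 25.6% with XistdeltaA/+ in MD1/MD1 cells, a difference of -1.32 points (Newcombe interval at 95%, -4.40 to 1.78; Fisher's exact test, adjusted p = 0.667). In +/+ cells it was 0.297% with Xist1lox/+ and 0.133% with XistdeltaA/+, a difference of 0.16 points (-0.24 to 0.75; adjusted p = 0.687 by Fisher's exact test). Shroom4 differed by -3.98 points in MD1/MD1 cells, with an interval of -17.1 to 10.8 that leaves room for a sizeable difference either way (Fisher's exact test, adjusted p = 0.832). In +/+ cells its interval ran from -7.27 to 10.2 points around 0. Neither gene was called, where 8.21% of measured X-linked genes were called in MD1/MD1 and 7.92% in +/+ cells. Shroom3 was not called either, with differences of 1.80 points (-1.71 to 5.29) in MD1/MD1 and 3.55 points (0.177 to 6.94) in +/+ cells and adjusted p of 0.565 and 0.133 by Fisher's exact test, where 30.3% and 25.7% of autosomal genes were called.

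No family member passed the test of total levels between Xist mutations. The limma differences of Xist1lox/+ minus XistdeltaA/+ on the log2(FPKM + 1) scale were -0.23 ± 0.21 for Shroom2, -0.36 ± 0.31 for Shroom3 and -0.51 ± 0.28 for Shroom4 (SE), with adjusted p of 0.931, 0.928 and 0.927. For Shroom1, with a minimum mean of 0.1 FPKM, the limma difference was 0.13 (adjusted p = 0.981). No gene of 11471 passed in this contrast (0%), and 368 had an unadjusted p under 0.05. edgeR on the allele-assigned reads also called 0 genes, with 325 at an unadjusted p under 0.05. The +/+ libraries carried most of the Shroom3 difference, at 8.02 FPKM with Xist1lox/+ and 16.5 FPKM with XistdeltaA/+ (ratio 0.485), against 11.8 and 9.79 FPKM in MD1/MD1 (ratio 1.20). For Shroom4 it was the MD1/MD1 libraries, at 1.81 FPKM with Xist1lox/+ and 3.98 FPKM with XistdeltaA/+ (ratio 0.456), against 1.10 and 1.40 FPKM in +/+ (ratio 0.787). By size, again with 1 FPKM added, 7.15% of genes in MD1/MD1 and 14.2% in +/+ cells were at least 1.5-fold apart.

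Genes that work with Shroom proteins in apical constriction were listed as a group: the Rock kinases, myosin II subunits, junction and polarity proteins and their regulators. Of 49 listed, 48 were in the table and 47 entered the limma fit. None was higher and none lower in MD1/MD1 by limma, 1 (Myl6) had an unadjusted p under 0.05, and edgeR called 0. Over all 11471 genes limma called 0.0349%, and 374 had an unadjusted p under 0.05. The median log2 difference of the list was -0.02, equal to the median of all genes at 2 decimals. The binding partners Rock1 and Rock2 had log2 differences of -0.10 ± 0.21 and 0.01 ± 0.20 (SE; limma adjusted p = 0.966 and 0.998). The most abundant members were Actb, cytoplasmic beta-actin, at 1877 and 1790 FPKM in MD1/MD1 and 1947 and 2060 FPKM in +/+, and the myosin light chain gene Myl6, at 264 and 274 FPKM in MD1/MD1 and 312 and 404 FPKM in +/+. Ctnnb1, the beta-catenin of adherens junctions, had 307 and 282 FPKM in MD1/MD1 and 281 and 258 FPKM in +/+.

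All 48 of these partners are autosomal. Of 41 with a measured paternal share, 3 were higher in MD1/MD1 in both pairs (Ppp1cb, Ppp1r12a and Tjp1) and 5 lower, among them Mllt4, Myl12a, Myl12b and Rac1, where 6.91% and 7.47% of autosomal genes did so. Tjp1, the junction protein ZO-1, was at 47.1% and 44.5% in MD1/MD1 and at 0% in both +/+ libraries. Mllt4, the junction protein afadin, and the myosin light chain gene Myl12a, both on chromosome 17 with Smchd1, were at 0% to 0.580% in MD1/MD1 and at 48.4% to 53.0% in +/+. Smchd1 itself was at 0% and 0.532% in MD1/MD1 and at 51.2% and 52.4% in +/+. In a cross with an F1 parent, a library can carry C57BL6/J alleles alone in a region, and this and an effect of Smchd1 genotype on a share cannot be told apart. Shroom1 and Shroom3 had reads of both alleles in all libraries where a share is given.

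X-linked genes for other actin-binding proteins and regulators of the actin cytoskeleton gave a second group. Of 24 listed, 22 were in the table under the listed name, and 14 of these had enough allele-assigned reads. The others, Diaph2 and Tmsb15l, stand there as Diap2 and in a joint entry with Tmsb15b2, and were not counted. Diap2 (4.01 and 0.17 points) and the joint entry (0 points in both pairs) were not called in both pairs. In both pairs 4 of the 14 were higher in MD1/MD1, against 34.6% of X-linked genes, and 1 was lower, against 1.76%. Flna, the actin crosslinker filamin A, was at 9.02% and 8.81% in MD1/MD1 and at 0.126% and 0.196% in +/+, from 5550 to 9155 reads. Cdk16, a cyclin-dependent kinase, was at 11.6% and 13.4% in MD1/MD1 and at 0.398% and 0% in +/+. Fgd1, a Cdc42 exchange factor, was at 1.58% and 1.84% in MD1/MD1 and at 0% in both +/+ libraries. The shares of Shroom2 and Shroom4 in MD1/MD1 were above those of Flna, Cdk16 and Fgd1, an order that rests on the values by which the family was picked. Pak3, a p21-activated kinase, was at 0% in both MD1/MD1 libraries and at 7.75% and 7.29% in +/+. Msn, the membrane-actin linker moesin, did not pass in either pair, with at most 0.603% in any library. The median difference of the 14 genes was 1.87 and 0.93 points, and that of all 341 X-linked genes 2.72 and 2.33 points.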

How the data were processed

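RNA of 4 EpiSC samples was sequenced from stranded mRNA libraries (TruSeq), according to the labels' protocols. Build mm9, Cufflinks 2.2.1 and Cuffdiff stand, without a role, in the submitters' processing notes. Not given in the sources used here are the aligner, strain variants, annotation and use of strand in counting. The authors deposited, per the file headers, the count of allele-assigned reads, the paternal fraction of those reads and FPKM for each gene. Another 6 columns with values of single samples matched none of the 4 libraries and stayed unused. Fractions times counts gave whole paternal reads within 1e-06. Starts in the table were taken to count from 0 and are printed from 1.

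Paternal and maternal reads were compared with Fisher's exact test (two-sided, scipy 1.17.1) in genes that reached 20 allele-assigned reads in every library, with Benjamini-Hochberg adjustment over all genes. Total expression was fitted as log2(FPKM + 1), which understates ratios of low genes, with limma 3.58.1 (trend) for Smchd1 genotype plus Xist mutation in genes whose mean FPKM reached 1. The 1 residual degree of freedom is the difference between both pairs. As an alternative, edgeR 4.0.16 was run on counts of allele-assigned reads. Fisher's exact test and limma were also run on simulated data with planted changes, as a check of the code. The changes planted for limma were far larger than those of the Shroom genes. Simulated allele reads held counting error only, without other differences between libraries. Neither run therefore shows the error rate in these data. Named genes are the members, Smchd1 and Xist, the 3 genes with the most similar shares, the nearest measured genes (3 each side on the X chromosome, 2 on autosomes), and genes of each list past a test or else the 4 highest expressed; Rock1, Rock2, Msn and the genes under 40% near Shroom3 were added after their values were seen. Members and lists were chosen with earlier results of these data known. Listed genes were matched by exact name, so Diaph2 and Tmsb15l, which stand under other names, were left out of the counts. Single genes of the lists that are counted but not named are not reported here.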

Additional observations from a re-analysis of the deposited data

Results flagged for a closer look

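Total expression of Shroom3 and Shroom2 went opposite ways in the pairs of libraries. The FPKM ratio of MD1/MD1 over +/+ was 0.592 for Shroom3 in the XistdeltaA/+ pair and 1.47 in the Xist1lox/+ pair, and for Shroom2 it was 0.929 and 1.38. With 1 library per combined genotype this difference between Xist backgrounds was not tested. Opposite directions were common: 48.6% of the 11471 genes tested showed them. The gap between the pairs was 1.20 on the log2(FPKM + 1) scale for Shroom3, wider than for 94.9% of these genes, and 0.52 for Shroom2, wider than for 74.2%.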

How the results depend on the processing

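Shares of Shroom4 rest on 34 to 142 reads and those of Shroom1 on 17 or fewer, and no combined genotype has a second library. Libraries were paired by Xist mutation alone, by the need to pass Fisher's exact test in both pairs and by a term of the limma fit. The labels give no replicate numbers for any other pairing. With the reads of both Xist backgrounds summed, the paternal share was higher in MD1/MD1 for 179 X-linked genes and lower for 20, against 118 and 6 called in both pairs; summing both drops the need to pass in each pair and adds reads to the test, and these were not separated. Without a filter on low values limma called 0 genes between Smchd1 genotypes, with 567 at an unadjusted p under 0.05; other settings, edgeR included, called 3 to 6. Single pairs reversed 3 uncalled limma differences: 0.50 for Shroom3 between Smchd1 genotypes in the Xist1lox/+ pair, and 0.034 for Shroom2 and 0.24 for Shroom3 between Xist mutations in MD1/MD1 cells. The other 76 values kept their direction and their side of the threshold, or stayed within 1.5 times for counts.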

Other observations

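Shroom3 was highest in the +/+ XistdeltaA/+ library, and so were 20 of the 47 apical constriction partners, against 37.3% of all 11471 genes. MD1/MD1 XistdeltaA/+ had the highest value of 16 of the 47, against 24.6% of all genes, and +/+ Xist1lox/+ of 8, against 23.3%. MD1/MD1 Xist1lox/+ had the highest value of 3 of the 47, against 14.8% of all genes. Chosen after its values were seen, Tjp3, the junction protein ZO-3, had 16.1 FPKM in MD1/MD1 and 39.1 FPKM in +/+ with XistdeltaA/+, and 17.5 FPKM in MD1/MD1 and 15.4 FPKM in +/+ with Xist1lox/+. Prkcz, an atypical protein kinase C of apical polarity and chosen in the same way, had 5.29 FPKM in MD1/MD1 and 9.70 FPKM in +/+ with XistdeltaA/+, and 6.26 FPKM in MD1/MD1 and 5.41 FPKM in +/+ with Xist1lox/+. Neither was called by limma between Smchd1 genotypes (adjusted p = 0.937 for both), and the order of these libraries was not tested.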
